A study of Rattus norvegicus with 16 samples.

Results

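The read ends and the arm choice of miRNA hairpins were described across 6 rat tissues. Members were the hairpin arms that held at least 50 reads in a library of the six-tissue set. Of 698 arms with a read in its 12 libraries, 390 arms of 267 hairpins reached 50 reads in at least 1 library, which gave 2071 values of an arm in a library. The quantities taken from the reads of an arm in a library were shares and lengths, not abundances: the share of the hairpin's reads that lay on its 5' arm, the share of the arm's reads at its main 5' start, the mean read length, and the standard deviation of the 3' end position, called the 3' end spread.

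Kidney, testis, heart, spleen, liver and whole brain came from adult males of 2 inbred rat strains, BN-Lx (a brown Norway line) and SHR (the spontaneously hypertensive rat), and total RNA of the frozen whole tissue was used. The submitters' design text states that 1 BN-Lx rat and 1 SHR rat supplied all tissues, so each tissue had 1 library per strain, and the strains served as the replicates of a tissue (n = 2 throughout). The spread behind every test therefore held the difference between strains, between animals and between libraries, which cannot be told apart. Livers of 2 further BN-Lx and 2 further SHR rats, sequenced as a separate set, were not part of the tests and are given beside the results for liver.

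Depth was lowest in testis, with 26880 (BN-Lx) and 29131 (SHR) reads on hairpins, and lay between 403453 and 1064894 in the other libraries. At least 50 reads were reached by 76 to 318 arms per library, fewest in testis, and 50 arms reached it in all 12 libraries. The labels were checked against miRNAs known for 1 tissue. Of 24 such markers, 20 had their highest level in the labelled tissue, among them mir-124 in brain, mir-122 in liver, mir-223 in spleen, mir-208 in heart and mir-202 in testis. Of the kidney markers, mir-192 and mir-194 were highest in liver and mir-204 in testis, and mir-741 had no hairpin in the files. By the study's methods, testis and SHR liver had been amplified with more PCR cycles than the other libraries.

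A miRNA precursor is a hairpin that Drosha cuts from the primary transcript and Dicer opens at the loop. The cuts leave a duplex of the 5' and the 3' arm, and usually 1 strand is loaded into an Argonaute protein while the other is lost. The first base of the loaded strand is held in a pocket of the protein, and the bases after it, the seed, pair with the target mRNA. A start shifted by 1 nt therefore gives a miRNA with another seed, whereas a change at the 3' end leaves the seed as it is. Reads of 1 arm that differ in their ends are called isomiRs.

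The reads that the results turn on are shown first, as DNA letters, 5' to 3', with the seed (bases 2 to 8) in capitals. The first set holds both arms of mir-7a-1 and mir-34b, which passed the test of arm share below, and of mir-142 and mir-22, which did not. Each arm has its own seed.
mir-7a-1-5p: tGGAAGACtagtgattttgttgtt
mir-7a-1-3p: cAACAAATcacagtctgccata
mir-34b-5p: aGGCAGTGtaattagctgattgt
mir-34b-3p: aATCACTAactccactgccatc
mir-142-5p: cCCATAAAgtagaaagcact
mir-142-3p: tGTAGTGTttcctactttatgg
mir-22-5p: aGTTCTTCagtggcaagcttta
mir-22-3p: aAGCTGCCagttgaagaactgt

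The second set holds reads of 1 arm that differ in their start, named by the position of the start on the hairpin counted from 1. In each of these groups the capitals move along the same stretch of the arm.
mir-345-5p from 16: tGCTGACCcctagtccagtgct
mir-345-5p from 17: gCTGACCCctagtccagtgct
mir-505-3p from 42: cGTCAACActtgctggtttcct
mir-505-3p from 43: gTCAACACttgctggtttcct
mir-505-3p from 44: tCAACACTtgctggtttcctct
mir-126-3p from 46: tCGTACCGtgagtaataatgc
mir-126-3p from 47: cGTACCGTgagtaataatgc
mir-101a-3p from 46: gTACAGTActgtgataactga
mir-101a-3p from 47: tACAGTACtgtgataactga
mir-29b-1-3p from 50: cTAGCACCatttgaaatcagtgt
mir-29b-1-3p from 51: tAGCACCAtttgaaatcagtgt
All letters come from the study's list of the most frequent read of each arm, except those of mir-29b-1-3p from 50, which were read from the RefSeq hairpin (GRCr8).

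The 5' end was the fixed end of most arms and the 3' end the loose one. Averaged over the libraries in which an arm reached 50 reads, the median arm had 96.9% of its reads at its main start and 59.8% at its commonest 3' end. The main start share was the larger of the pair in 364 of 390 arms. It was 90% or more in 281 arms and under 50% in 6, among them mir-136-3p with 29.1% and mir-29c-5p with 41.6%. The starts of 3' arms, which Dicer makes, were spread more widely than those of 5' arms, which Drosha makes: the median main start share was 94.2% in 205 arms from the 3' side (quartiles 83.9% and 97.8%) and 98.2% in 185 arms from the 5' side (quartiles 94.0% and 99.3%). Arm names, and so this comparison, may be wrong for hairpins with no listed locus, whose arms were set from their commonest read. Mean lengths differed little, with a median of 21.5 nt for 3' arms and 21.6 nt for 5' arms.

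**Figure D1:**
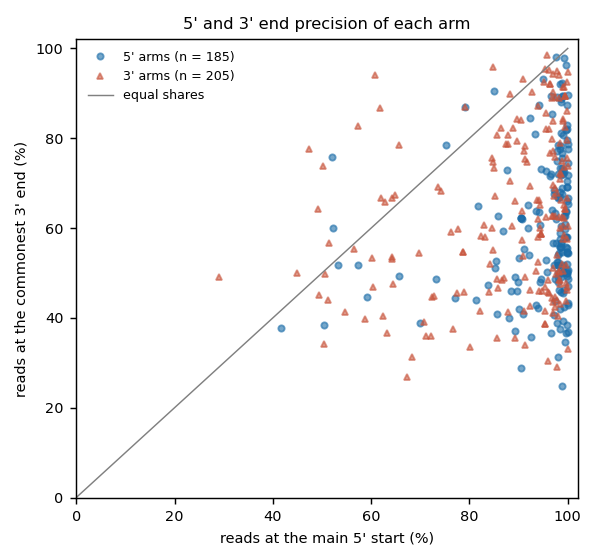
Share of reads at the main 5' start (x axis, % of the arm's reads) against the share at the commonest 3' end (y axis, %), 1 point per arm (circles 5' arms, triangles 3' arms), each the mean over the libraries with at least 50 reads; the grey line marks equal shares. Of 390 arms, 364 lie below the line, and most points crowd at the right edge, where over 90% of reads share a start.

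Where the main start held under 90% of reads (109 arms, 79 of them 3' arms), the second start was 1 nt downstream in 52 arms, 1 nt upstream in 35 and farther away in 22. Of 376 arms whose first base could be read, 42.3% began with T (U in the RNA), and A, C and G followed with 29.3%, 18.6% and 9.84%. The arm with more reads began with T in 140 of 255 cases (54.9%) and the arm with fewer reads in 19 of 121 (15.7%), where C was the commonest first base with 37.2%. RefSeq hairpins of the GRCr8 build held a mature miRNA on the same arm for 282 arms. The main start equalled the annotated 5' end in 263 of them, lay upstream in 8 and downstream in 11. Examples of a shifted main start were mir-101a-3p, 1 nt upstream, mir-142-5p, 2 nt upstream, and mir-140-3p, 1 nt downstream.

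The end shares and lengths of a library as a whole differed little between tissues. Over the 50 arms measured in all 12 libraries, the median main start share lay between 97.8% and 98.1%, the median of the mean lengths between 21.81 and 21.89 nt, and the median 3' end spread between 0.855 and 0.983 nt. A median over arms does not show how many single arms differed between tissues, which is given below. Of 212 arms measured in at least 2 tissues, 204 had the same commonest start in every library with 50 reads, and 130 the same commonest 3' end. The 8 arms with more than 1 commonest start were mir-345-5p, mir-505-3p, mir-126-3p, mir-29c-5p, mir-101b-3p, mir-330-3p, mir-361-3p and hsa-mir-582-5p (named after its human hairpin). The dominant arm was the same in every library for 154 of 169 hairpins and differed for 15.

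To ask which arm a tissue keeps, the reads of both arms were compared between tissues in edgeR (quasi-likelihood F test, Benjamini-Hochberg adjusted). Only 2 of 148 hairpins, mir-7a-1 and mir-34b, passed the adjusted p of 0.05, which is 1.35% of those tested. An unadjusted p of 0.05 or less was found in 18, and 2 of 650 pairs of hairpin and tissue (0.308%) were called against the mean of the other tissues. These were mir-7a-1 in liver, 0.909% of the 110 hairpins testable there, and in heart, 0.847% of 118. Whole tissues were sequenced, so another makeup of cells and a change within cells cannot be told apart. DESeq2 called 6 hairpins and limma on logit shares 16, and each of these lists held both hairpins. In 161 of 267 hairpins the minor arm held under 5% of the reads, and in 55 at least 20%.

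The hairpin mir-7a-1, of a family known from neurons and endocrine cells, ranged widely. Its 5' arm held 89.8% of reads in BN-Lx liver and 93.2% in SHR liver, 38.1% and 43.5% in brain, 26.5% and 57.0% in spleen, 9.0% and 17.3% in kidney, and 7.9% and 8.8% in heart. Liver lay above and heart below all other libraries, and the strains differed most in spleen. The F test gave an adjusted p of 0.00185 (edgeR), and between 6.3e-11 and 0.247 over 21 alternatives. The difference of liver from the other tissues was 5.26 on the log2 scale of the odds (5' reads over 3' reads, adjusted p = 0.00187, edgeR) and that of heart -3.36 (adjusted p = 0.0414, edgeR). The mean that heart was set against included the high liver values. The liver shares rested on 68.5 reads in BN-Lx and 88.5 in SHR, with 95% exact intervals of 81.8 to 96.7% and 85.7 to 97.5%. In the 4 further livers, with 402.5 to 1626.5 reads, the share was 30.7%, 49.2%, 34.5% and 43.8%, so the high liver share was not seen there, and with these livers added the adjusted p was 0.247 (edgeR). Of the reads of the hairpin, 23.3% were shared with paralogous hairpins, and with paralogous hairpins summed mir-7a passed as well (adjusted p = 0.00456, edgeR).

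In mir-34b, a p53 target abundant in testis, the share of the 5' arm was 2.2% and 1.4% in testis against 58.7% and 31.9% in brain (adjusted p = 0.0194, edgeR). Both testis values lay far below both brain values, while the strains differed widely within brain. In BN-Lx kidney, the only other library with 50 reads on 1 of the arms, the share was 44.2%. The testis shares rested on 543 and 814 reads. The call was kept in 11 of 20 alternatives, with an adjusted p between 0.00304 and 0.42, and was lost when any 1 library of brain, spleen or testis, or SHR kidney, was left out (edgeR). The hairpin lies at chr8:60306609-60306692 (GRCr8, minus strand) within the span of the gene Hoatz.

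The arm with most reads differed between tissues, with both strains alike, in 7 of the 148 tested hairpins: mir-7a-1, mir-142, mir-22, mir-122, mir-672, mir-199a and mir-93. Only mir-7a-1 passed the test. In mir-142, a miRNA of blood cells, the 5' arm held 36.2% and 39.7% in spleen and between 68.1% and 91.9% in brain, liver, heart and kidney. The spleen values lay apart from the other 8, yet the adjusted p was 0.189 (edgeR, 0.00339 to 0.549 over 21 alternatives). Spleen also had the most reads of this hairpin, 2185 and 2061 against 67 to 193 elsewhere, and in the further livers, with 498 to 1365 reads, the share was 27.7%, 23.5%, 43.8% and 61.1%. The part of read number in the difference was not tested.

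In mir-22, which is expressed in many tissues, the 5' arm held 66.9% and 66.2% in liver, 61.0% and 58.3% in brain, 47.4% and 40.6% in spleen, 33.7% and 50.9% in heart, and 27.3% and 16.8% in kidney. Liver and brain lay above and kidney below the other tissues, and the further livers had 63.6 to 70.1%, close to the livers of the six-tissue set. Its adjusted p was 0.246 (edgeR, 0.0191 to 0.591 over 22 alternatives). In mir-122, the miRNA of hepatocytes, liver had 77.3% and 82.7% (further livers 86.6 to 92.7%), brain and kidney between 48.6% and 51.8%, and testis 31.5% and 25.6%. BN-Lx spleen had 40.9% and SHR heart 23.2%. Liver held 161111 and 195382 reads of mir-122, kidney 138 and 137, and testis 92 and 82. The part of read number was not tested. The adjusted p of mir-122 was 0.246 (edgeR, 0.0191 to 1 over 22 alternatives), and it passed with DESeq2, with limma on logit shares and with the further livers added. In mir-672, with 148 to 428 reads per library, brain had 41.8% and 39.1% and kidney 67.6% and 80.2% (adjusted p = 0.423, edgeR). In mir-93, a member of the mir-17 family, spleen had 30.9% and 39.3% and kidney 63.4% and 51.5%. In mir-199a, testis had 71.2% and 54.9% and kidney 50.8% and 50.1%, with the 3' arm ahead in brain, spleen and heart. The intervals of BN-Lx kidney (49.7 to 52.0%), SHR kidney (49.0 to 51.2%) and SHR testis (47.2 to 62.4%) held 50%. The SHR liver value of mir-199a, 93.3%, stood apart from 37.5% in BN-Lx liver and from 6.8 to 12.4% in the further livers. The adjusted p was 0.736 for both mir-93 and mir-199a (edgeR).

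**Figure D2:**
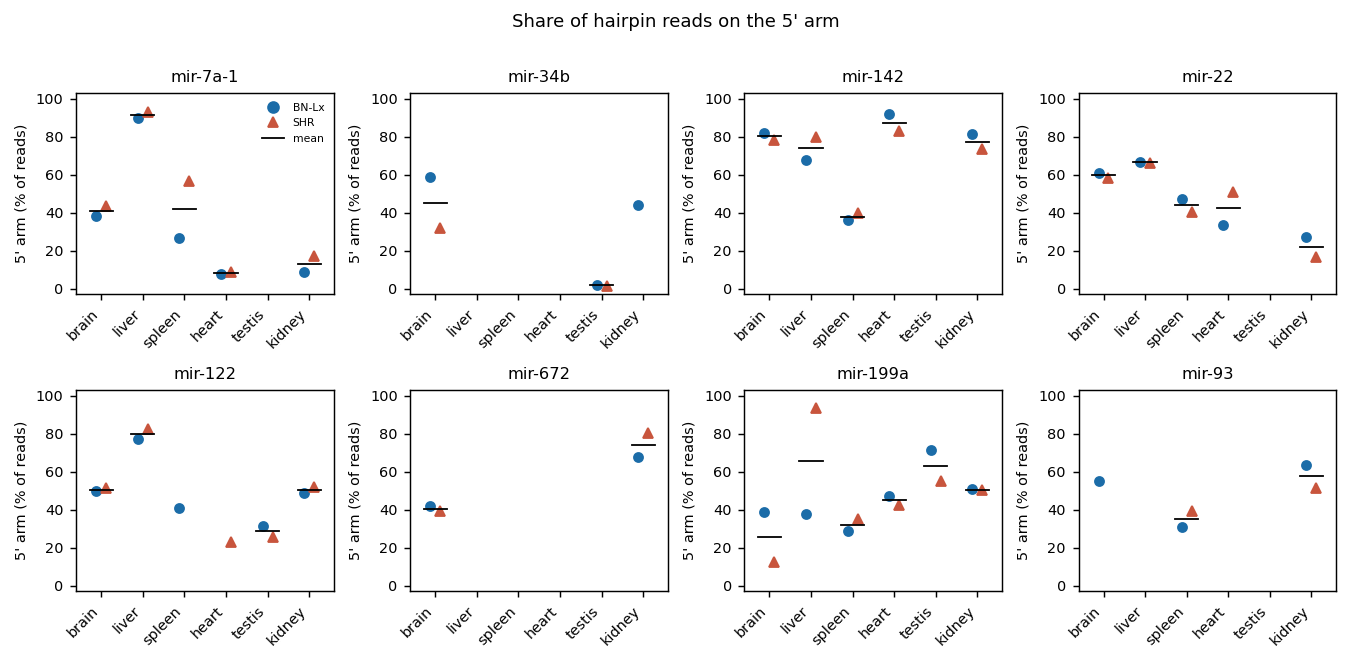
Share of reads on the 5' arm (y axis, % of the hairpin's reads) by tissue (x axis) for 8 hairpins; circles are BN-Lx, triangles SHR and bars the mean of the strains, and a library is shown where an arm of the hairpin held at least 50 reads. The liver values of mir-7a-1 lie at 89.8% and 93.2% and the spleen values of mir-142 at 36.2% and 39.7%.

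Of 8 tested hairpins on a list known for functional arms on both sides (mir-9, mir-17, mir-30e, mir-126, mir-140, mir-142, mir-199a and mir-223, 11 hairpins in the files), none was called, and 2, mir-142 and mir-17-2, had an unadjusted p of 0.05 or less (edgeR), beside 2 called and 18 unadjusted of all 148. DESeq2 and limma on logit shares each called mir-142. Their median range of tissue means was 6.47 percentage points, against 1.67 over all tested hairpins.

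To ask whether tissues cut an arm at another 5' position, reads at the main start were compared with reads at all other starts. In edgeR, 21 of 176 arms passed the adjusted p, 11.9% of those tested, and 19 with paralogous copies counted once. The called arms comprised 14 of 81 arms from the 3' side and 7 of 95 from the 5' side. Most differences were small: the range of tissue means had a median of 4.21 percentage points, and it was under 5 in 12 of 21 arms. Of 727 pairs of arm and tissue, 26 were called (3.58%). In 8 of the 26 the tissue overlapped with libraries of other tissues. By tissue, brain was higher in 5 of 140 arms (3.57%) and lower in 1 (0.714%), and liver higher in 3 and lower in 3 of 122 (2.46% each). Spleen was higher in 2 and lower in 2 of 138 (1.45% each), heart lower in 2 of 131 (1.53%), testis higher in 1 and lower in 1 of 54 (1.85% each), and kidney lower in 5 of 142 (3.52%) and higher in 1 (0.704%). The calls depended on the tool. DESeq2 called 7 arms, all among the 21, and limma on logit shares 0, with a smallest adjusted p of 0.0513 for mir-200a-3p and 28 arms at an unadjusted p of 0.05.

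In mir-345-5p the commonest start itself differed. Starts at 16 and 17 together made up nearly all reads, and the share at 16 was 70.5% and 74.0% in liver, 60.6% and 59.6% in spleen, 58.3% and 36.7% in heart, 41.2% and 44.5% in kidney, and 40.6% and 37.3% in brain. Liver and spleen of both strains thus had the seed GCTGACC in most reads, brain and kidney the seed CTGACCC, and the strains disagreed in heart. Each library held 342 to 1048 reads, and the 95% exact interval of BN-Lx liver was 65.9 to 74.7% against 37.7 to 43.7% in BN-Lx brain. The adjusted p was 1.04e-07 (edgeR). It was past the threshold in 21 of 23 alternatives and lost with limma on logit shares (0.128) and where reads within 1 nt count as main (1), which by construction joins both starts. The 4 further livers had 81.9%, 78.9%, 80.5% and 77.5% at 16, above all libraries of the other tissues. RefSeq annotates the start at 16 and places the hairpin at chr6:133518403-133518498 (GRCr8, plus strand), within a long non-coding RNA gene.

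A second arm with a changing commonest start was mir-505-3p, which began at 42, 43 or 44. Start 42 led in brain with 55.5% and 54.3%, and start 43 in liver with 64.7% and 52.4% and in heart with 61.2% and 57.9%. Spleen and kidney differed between strains. Its adjusted p was 0.294 (edgeR, 0.00146 to 1 over 23 alternatives), and it passed in 6 of them, among them a minimum of 20 or of 200 reads. In the further livers start 44 held between 40.5% and 51.4%, against 15.2% and 27.1% in the livers of the six-tissue set.

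**Figure D3:**
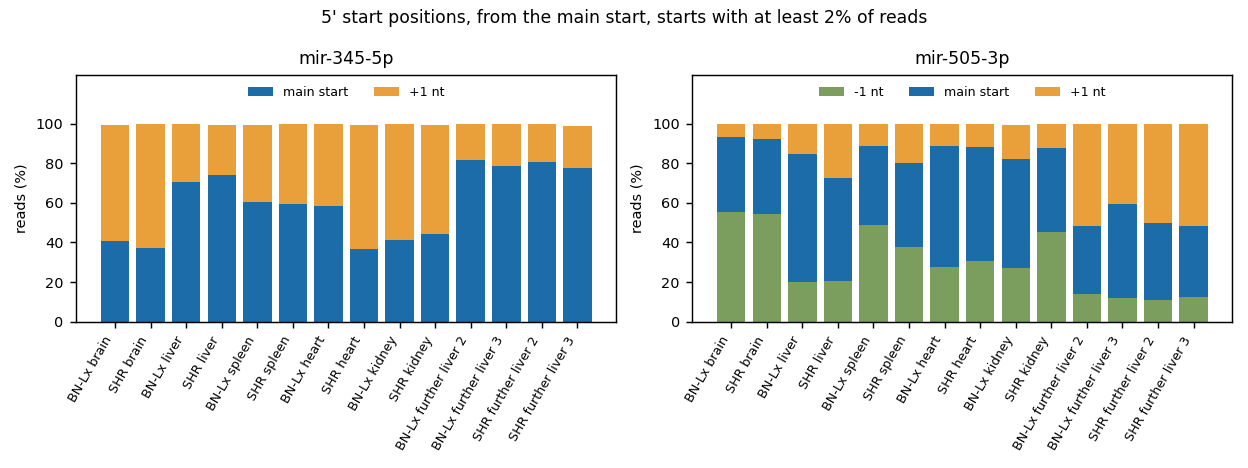
Share of reads (y axis, %) at each 5' start of mir-345-5p and mir-505-3p in each library with at least 50 reads, the 4 further livers included, stacked, with starts given from the main start and starts under 2% left out. For mir-345-5p the main start is the larger part in liver and spleen and the smaller in brain and kidney; for mir-505-3p the upstream start is the larger part in brain.

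In mir-126-3p, the miRNA of endothelial cells, the start at 47 held 51.5% and 44.8% in kidney and between 52.7% and 62.2% in the other tissues. Kidney lay below all of them, and in SHR kidney start 46 was the commonest with 51.8%. Kidney differed from the other tissues by -0.57 on the log2 odds scale (adjusted p = 4.75e-06, edgeR). The F test (adjusted p = 2.29e-06) was past the threshold in 12 of 24 alternatives (edgeR, 7.12e-07 to 1). Start 47 was lower still in the further livers, 35.5 to 44.6% against 58.9% and 56.3% in the livers of the six-tissue set, below every library of the six-tissue set.

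In mir-101a-3p the main start at 46 held 79.2% and 81.5% in liver, 86.2% and 87.7% in heart and 90.1 to 93.3% in brain, spleen, kidney and BN-Lx testis. Liver lay below all other libraries (adjusted p = 5.9e-05, edgeR), and reads from 47 made up 18.9% and 16.8% there. The further livers had 76.1%, 78.3%, 81.7% and 87.2% at the main start. The F test was past the threshold in 21 of 24 alternatives.

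The mir-29b-3p arms, whose copies share reads, had 93.5% and 93.1% at the main start in spleen and 72.4% and 77.7% in kidney (values of mir-29b-1), with 79.3 to 89.1% elsewhere. Spleen lay above and kidney below the other libraries, and the adjusted p was 8.48e-08 for spleen and 3.36e-06 for kidney (edgeR). The F test was past the threshold in 19 of 23 alternatives. It was lost after thinning, with the further livers added, with limma on logit shares and where reads within 1 nt count as main. That last setting by construction takes in the start at 50. There the spleen difference was -0.29 on the log2 odds scale, reversed but not past the threshold. The rest of the kidney reads mainly began 1 nt upstream, at 50, with 24.1% and 20.3%. At the main start the further livers had 89.3% and 87.7% (BN-Lx) and 87.7% and 75.6% (SHR). Only the last share lay within the range of the kidney values.

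In mir-200a-3p, an epithelial miRNA, the main start held 95.2% and 96.6% in kidney, 94.3% in BN-Lx brain, 76.0% and 71.0% in liver and 51.02% and 70.2% in spleen. The F test gave an adjusted p of 3.26e-06 (edgeR). Libraries with few reads were those with low shares: kidney held 2040 and 11844 reads and BN-Lx brain 1531, but liver and spleen 98 to 171, and SHR brain, with 35 reads and outside the test, had 22.9%. The further livers, with 890 to 2298 reads, had 98.3 to 98.9%, so the liver difference was not seen there. The call was lost with these livers added (adjusted p = 0.265, edgeR), with DESeq2 (0.238) and with limma on logit shares (0.0513). In mir-182-3p the share was 97.3 to 97.8% in kidney and BN-Lx brain (433 to 806 reads), 94.2% and 78.6% in liver (69 and 145 reads), 81.5% in SHR spleen (65 reads), and 99.8 to 100% in the further livers. The part of read number was not tested.

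Small shifts in deep arms were called too. The mir-24-3p arms had 97.9% and 98.0% at the main start in brain and 95.6 to 96.9% in the other libraries (adjusted p = 6.25e-09 for brain, edgeR). Their F tests were past the threshold in 21 of 23 alternatives and were lost with the further livers added and with limma on logit shares. In mir-192-5p liver had 92.6% and 91.4%, kidney 91.8% and 92.3% and the other tissues 94.0 to 95.7%, and both liver and kidney were called. These are also the tissues with most reads of this arm, 42530 to 68176 against 107 to 2341. In mir-21-5p heart was lower, with 95.9% and 96.9% (adjusted p = 9.01e-05), and testis higher, with 99.5% and 98.6% (adjusted p = 0.0368, both edgeR). Of 24 alternatives, the F test of mir-192-5p was past the threshold in 20 and that of mir-21-5p in 19. Both were lost after thinning, with the further livers added, with limma on logit shares and where reads within 1 nt count as main, and mir-21-5p also with DESeq2. The other called arms were mir-29a-3p, mir-378-3p, mir-23b-3p, mir-191-5p, mir-25-3p, mir-182-3p, mir-24-2-5p, mir-99a-5p, mir-331-3p, mir-151-5p and mir-106b-3p. With the animal as a block mir-151-5p (adjusted p = 0.053) and mir-106b-3p (0.063) lost their calls (edgeR).

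**Figure D4:**
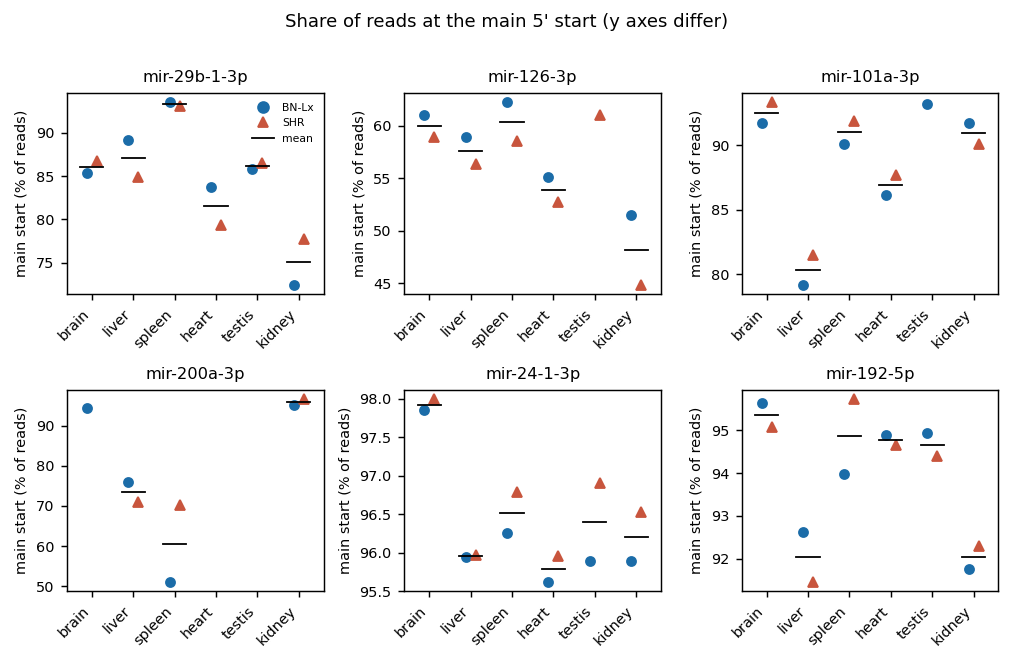
Share of reads at the main 5' start (y axis, %, scale differs between panels) by tissue (x axis) for 6 called arms; circles are BN-Lx, triangles SHR, bars the mean of the strains. Kidney is lowest for mir-29b-1-3p and mir-126-3p, liver for mir-101a-3p, and brain is highest for mir-24-1-3p.

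Of 24 arms on a list known for alternative 5' ends (mir-10a, mir-101, mir-124, mir-133a, mir-140, mir-142, mir-183 and mir-219), 5 could be tested and 1, mir-101a-3p, was called, beside 21 of 176 (11.9%) over all arms tested. In mir-140-3p, with 71.1 to 79.5% at its main start, the adjusted p was 0.807 (edgeR, 0.00884 to 1 over 24 alternatives). It passed in 5 of them, among them the animal as a block and a minimum of 200 reads. The 5' arm of mir-10a, mir-10a-5p, had 58.4 to 79.5% with the strains far apart in liver and spleen. The 3' arm of mir-133a, the heart and muscle miRNA, could be measured in heart alone: in BN-Lx 48.1% of reads began at 52 and 46.8% at 53, in SHR 40.5% and 54.1%. The 3' arm of mir-142 was spread in spleen over starts 52, 53 and 55, with 49.7%, 23.0% and 26.3% of the BN-Lx reads, and SHR had 52.2%, 28.2% and 18.3%.

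Mean read length was taken over all reads of an arm, so a shifted start enters it as well as a shifted 3' end. Reads were 17 to 26 nt long in the six-tissue set and 15 to 29 nt long in the further livers. Mean lengths of the 2 sets were thus taken over different ranges. Mean lengths differed between tissues in 26 of 176 arms (limma, moderated F test, adjusted p of 0.05), 14.8% of those tested and 21 with copies counted once. The median range of tissue means was 0.543 nt in the called arms and 0.25 nt over all arms tested, and the strains of a tissue differed by a median of 0.0846 nt. Of 727 pairs of arm and tissue, 33 were called (4.54%). In 6 of the 33 the tissue overlapped with libraries of other tissues, among them let-7f-1-5p in liver and spleen and let-7f-2-5p in spleen. For these arms the mean of the other tissues included the short testis reads. Testis was shorter in 10 of 54 arms (18.5%) and longer in 0, and kidney longer in 7 of 142 (4.93%) and shorter in 0. Brain was shorter in 3 of 140 (2.14%) and heart in 3 of 131 (2.29%), spleen was longer in 4 of 138 (2.9%), and liver was longer in 4 (3.28%) and shorter in 2 (1.64%) of 122. Without testis, 9 of 174 arms were called.

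The testis arms were let-7f, let-7a, mir-125b and mir-30c, each with 2 copies that share reads, and mir-26b and mir-100, all from the 5' side. With the animal as a block the F test of mir-26b-5p gave an adjusted p of 0.0574 (limma), and its call held in 1 of 23 alternatives. For let-7f-1-5p the mean length was 20.69 and 20.74 nt in testis and 21.37 to 21.54 nt in the other libraries (difference -0.75 nt, adjusted p = 5.68e-05, limma). In testis 48.9% and 51.9% of its reads were 20 nt long and 35.8% and 34.0% 22 nt long, while in brain 20.2% and 22.5% were 20 nt and 59.5% in each strain 22 nt. For mir-125b-1-5p testis had 21.14 and 21.07 nt against 21.40 to 21.65 nt, and for mir-30c-1-5p 22.79 and 22.68 nt against 23.05 to 23.36 nt. In each of these 3 arms the testis libraries lay below all others. They were also the shallowest, with 68.5 and 117.5 reads of let-7f-1-5p, and had more PCR cycles. The part of depth and of amplification in these lengths was not tested. SHR liver, also amplified with more cycles, had 21.53 nt for let-7f-1-5p and BN-Lx liver 21.54 nt. Across the 50 arms measured in all libraries, the median length in testis was 21.88 and 21.85 nt, within the range of the other tissues.

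Heart had shorter reads of mir-378-3p and mir-455-3p. In mir-378-3p the mean length was 21.05 and 21.07 nt in heart and 21.36 to 21.76 nt elsewhere (difference -0.53 nt, adjusted p = 0.00539, limma), and the call of the F test held in 22 of 23 alternatives. Reads of 22 nt made up 38.3% and 23.9% in heart and 50.9 to 75.3% in the other libraries. In mir-455-3p, within the span of the collagen gene Col27a1, heart had 20.85 and 20.93 nt, liver 21.45 and 21.47 nt and the others 21.13 to 21.36 nt, and the further livers 21.52 to 21.69 nt. The F test of mir-455-3p was past the threshold in 20 of 22 alternatives and was lost for reads at the main start only.

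Kidney had longer reads of mir-22-3p, 20.90 and 21.30 nt against 20.03 to 20.56 nt (adjusted p = 0.0161, limma). Reads of 22 nt were 58.0% and 71.7% in kidney and 36.5 to 47.1% in brain, spleen and heart. The further livers, with 20.82 to 21.44 nt, overlapped with kidney and lay above the livers of the six-tissue set. The F test (adjusted p = 0.0311, limma) held in 8 of 22 alternatives and was lost with the further livers added, without testis, and without either liver or heart library, SHR brain, SHR spleen or SHR kidney. Kidney reads of mir-29b-1-3p were longer as well, 22.09 and 22.12 nt against 21.78 to 21.94 nt, beside its upstream start in kidney. The F test of mir-29b-1-3p was past the threshold in 8 of 22 alternatives and that of mir-29b-2-3p in 1 of 22. Among other settings, both were lost for reads at the main start only and with the animal as a block (adjusted p = 0.0531 for mir-29b-1-3p, limma). In mir-17-1-5p, of an oncogenic cluster, liver had the longest reads, 23.33 and 23.16 nt, and brain the shortest, 22.36 and 22.37 nt, and the further livers had 23.28 to 23.42 nt. In mir-211-5p, in the melanocyte gene Trpm1, brain had 19.44 and 19.88 nt and spleen 21.22 and 21.14 nt (adjusted p = 0.0156, limma). Here 27.7% and 26.9% of the brain reads were 17 nt long, the shortest length in the files of the six-tissue set, and SHR brain held 52 reads.

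**Figure D5:**
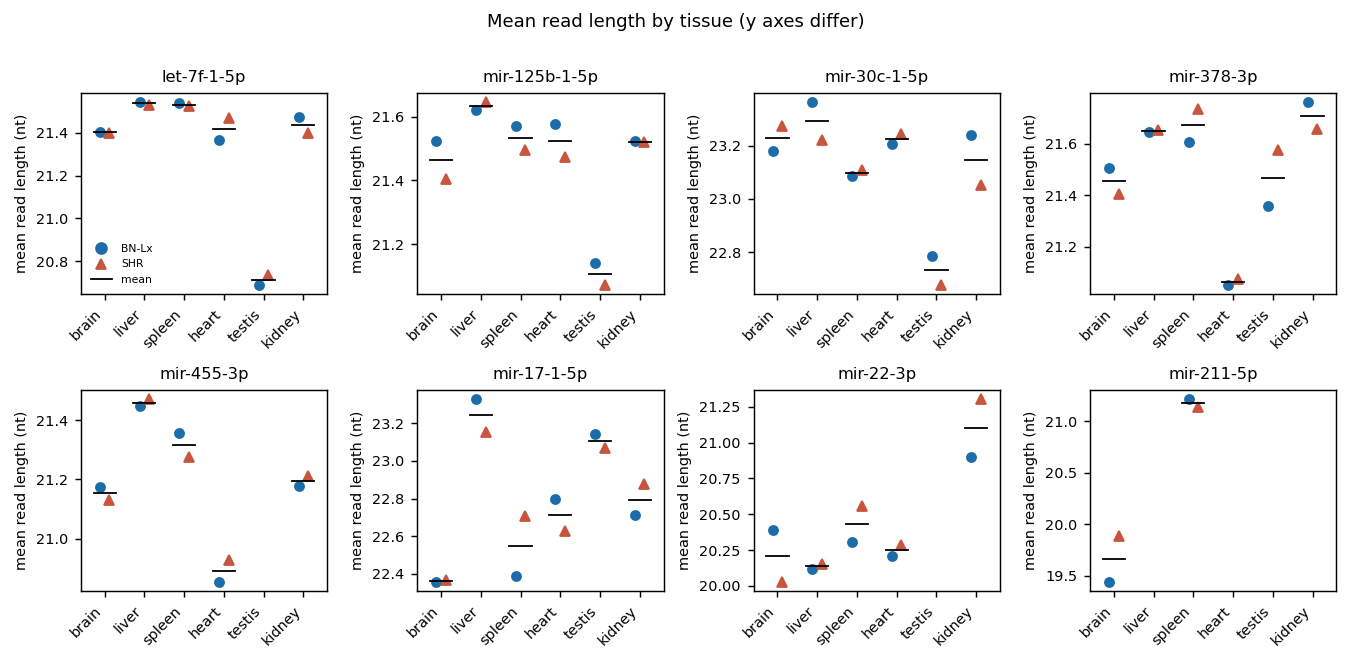
Mean read length (y axis, nt, scale differs between panels) by tissue (x axis) for 8 called arms; circles are BN-Lx, triangles SHR, bars the mean of the strains. Testis is lowest for let-7f-1-5p, mir-125b-1-5p and mir-30c-1-5p, heart for mir-378-3p and mir-455-3p, and kidney is highest for mir-22-3p.

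Of 18 tested arms on a list with known 3' trimming or tailing (mir-122, mir-451, mir-222 and the let-7 hairpins), 4 were called for length, beside 26 of 176 (14.8%) over all arms tested. They were the copies of let-7a (let-7a-1 and let-7a-2) and of let-7f (let-7f-1 and let-7f-2), which share reads. In mir-451-5p, a miRNA of red blood cells cut by Ago2 and then trimmed, spleen had 22.66 and 22.70 nt and the other libraries 22.32 to 22.56 nt. That contrast was called (adjusted p = 0.043), whereas the F test gave an adjusted p of 0.0906 (both limma). The mean length of mir-122-5p gave an adjusted p of 0.204 and that of mir-222-3p 0.627 (limma).

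The 3' end spread differed in 6 of 176 arms (limma, moderated F test), 3.41% of those tested: both copies of let-7f and of mir-29b, let-7c-2-5p and mir-211-5p. The other let-7c copy, let-7c-1-5p, was not called (adjusted p = 0.358, limma). All 6 calls were lost in most alternatives. The call of let-7c-2-5p held in 3 of 21 and that of mir-211-5p in 6 of 21. Of 22 alternatives, the call of let-7f-1-5p held in 3, and those of let-7f-2-5p and of both mir-29b copies in 5 each. For let-7f-2-5p the spread was 1.27 and 1.17 nt in testis and 0.81 to 0.93 nt elsewhere, and for mir-29b-1-3p 0.71 and 0.73 nt in kidney and 0.89 to 1.15 nt elsewhere. These groups did not overlap. For mir-211-5p it was 2.11 and 2.21 nt in brain and 1.501 and 1.45 nt in spleen. With the animal as a block, 0 of 176 arms were called, with 36 at an unadjusted p of 0.05 (limma), and without testis 0 of 174. Of 727 pairs of arm and tissue, 10 were called (1.38%). Testis was wider in 6 of 54 arms (11.1%), kidney narrower in 3 of 142 (2.11%) and brain in 1 of 140 (0.714%). The testis arms were the copies of let-7f, mir-30c and mir-125b, the arms whose testis reads were shorter.

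Close to the limit of 50 reads, the main start share ranged from 27.3% to 100% in 109 values with 50 to under 60 reads (median 94.7%) and from 16.3% to 100% in 153 values with 40 to under 50 reads (median 97.7%). Mean lengths ranged from 18.24 to 23.58 nt just inside and from 18.95 to 23.32 nt just outside the limit.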

How the data were processed

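The 12 libraries of the six-tissue set, and the 4 further livers beside them, were analysed. For each library the authors deposited estimated counts: the reads at each start and end position on a hairpin, where a read that fits several hairpins was divided evenly between them, without normalization. Per the study's methods, SOLiD reads were trimmed, mapped with SHRiMP (version not given in the sources used here) to hairpins of RGSC3.4 and miRBase, and kept only as perfect matches. Reads with non-templated 3' bases or edited bases are therefore not in the counts, and a read under 17 nt is not in the six-tissue set.

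A read was given to the arm its midpoint lay on, split at the middle of the hairpin (298 hairpins with a listed locus) or, without one, 8 nt from the midpoint of the commonest read towards the side with most other reads (89 hairpins). A hairpin or arm was tested if at least 2 tissues had 50 reads in both strains: 148 hairpins and 176 arms. The main start is the start with the highest mean share over usable libraries. Counts were rounded to whole numbers for edgeR 4.0.16 (library as a term, tissue as the term of the ratio; library totals as scale), whose prior degrees of freedom for the start share were infinite. Lengths and spreads were tested with limma 3.58.1. All tests were two-sided with Benjamini-Hochberg adjustment at 0.05 over all features of a measure; a tissue was set against the mean of the others where at least 3 tissues were usable. DESeq2 1.42.0 was an alternative. Exact (Clopper-Pearson) 95% intervals cover counting error only, and reads carry no molecular identifiers. R was version 4.3.3 and Python version 3.11.15, and the scripts were tested on simulated data.

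The animal pairs the tissues, since 1 rat per strain gave all 6. Deviations of libraries of the same strain correlated, over 15 pairs of tissues, with a median r of -0.07 for arm share, 0.16 for 5' start share, -0.02 for length and -0.04 for spread. The fit without the block was the main one.

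The members, lists and tests were chosen with earlier results of these data known. Named are hairpins or called arms whose dominant arm or commonest start differs between tissues, the 4 called features with the largest range and the contrast with the lowest p for each measure and tissue, and the 3 lists given in the text; other names were added after their values were seen. RefSeq hairpins (GRCr8) matched by symbol covered 306 of 390 arms. The letters of the study's sequence list were placed on 11846 hairpin positions, 31 of them with conflicting letters that were left out.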

Additional observations from a re-analysis of the deposited data

How the results depend on the processing

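Of 2262 F tests of single features under alternatives, 1767 kept their side of the threshold, 462 lost a call and 33 gained one. The 71 called tissue differences gave 1541 values over the alternatives. Of these values 1005 stayed called, 529 lost the call and 7 reversed. For arm share (2 called), a minimum of 200 reads and thinning each gave 0 calls, leaving out testis or shared reads 1, DESeq2 6 and limma on logit shares 16. Its 2 tissue differences became 8 at a minimum of 20 reads, 0 at 200 and 1 without testis. For 5' start share (21), thinning and adding the further livers each gave 3, leaving out shared reads 13, DESeq2 7, limma on logit shares 0, and counting reads within 1 nt as main 5. For length (26), 9 were called with no minimum beyond 1 read, 14 after thinning, 7 without shared reads, 9 without testis and 11 for the median length, and 12 of 33 tissue differences without testis. For spread (6), 54 were called with no minimum, 15 for reads at the main start, 2 with the further livers, 1 after thinning and 0 at a minimum of 20 reads, without shared reads, without testis, centred per library or with the replicate block, and its 10 tissue differences fell to 0 without testis. The cause was not tested, although fewer features were tested after thinning, without shared reads and at 200 reads. Leaving out 1 library gave 1 to 13 calls for arm share (13 without BN-Lx kidney, 8 without SHR kidney), 17 to 28 for start share, 14 to 26 for length and 0 to 6 for spread. There a tissue left with 1 library was assumed to vary like the others. The replicate block gave 2, 22, 25 and 0 calls in that order, of which 2, 19, 20 and 0 were also called without it. It ended the calls for spread, for the starts of mir-106b-3p and mir-151-5p, and for the lengths of both mir-29b-3p copies, mir-26b-5p, mir-143-3p, mir-301a-3p and mir-129-2-3p. With reads within 1 nt counted as main, differences on the log2 odds scale reversed to -0.19 for mir-24-2-5p in liver, 0.26 for mir-126-3p in kidney, -1.13 for mir-191-5p in brain, -0.29 for mir-29b-1-3p and -0.14 for mir-29b-2-3p in spleen, and 0.013 for mir-99a-5p in testis. With the further livers added, mir-29a-3p in liver reversed to -0.24. Depth limited testis most, where 76 and 80 arms could be measured. With 1 rat per strain, the spread behind the p-values came from the differences between the rats. For the start share this spread was pooled over all arms (infinite prior degrees of freedom). An arm's own difference between the rats therefore did not set the spread in its p-value.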

Other observations

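The 4 further livers, which entered no test of the report, also differed from the livers of the six-tissue set beyond the arms given above. In mir-140-3p the main start held 66.3 to 69.6% of reads in the further livers and 76.7% and 73.8% in the BN-Lx and SHR livers of the six-tissue set. In mir-192-5p it held 83.3 to 87.2% against 92.6% and 91.4%. Mean lengths of mir-125b-1-5p were 21.76 to 21.97 nt against 21.62 and 21.65 nt, and those of mir-30c-1-5p 23.43 to 23.69 nt against 23.36 and 23.22 nt. In each of these 4 arms the sets of livers did not overlap. The further livers held reads of 15 to 29 nt and the six-tissue set reads of 17 to 26 nt, so the mean lengths were taken over different ranges. The difference between the sets of livers was not tested, and the set and its sequencing cannot be told apart.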
